A study of Mus musculus with 9 samples.

Results

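mmu-miR-320-3p, mmu-miR-484, mmu-miR-877-5p and mmu-miR-877-3p are 4 mature mouse miRNAs from 3 hairpins that are known to be made without Drosha, the nuclear enzyme that cuts most miRNA hairpins out of long transcripts. They were picked by name, not by their measured values, from 1915 mature miRNA names in a table of small RNA read counts. All 4 were found in the table, with 1 row each, and 828 of the 1915 names had at least 1 count.

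The libraries came from the milk fat of 9 primiparous female ICR (CD1) mice, each milked on lactation day 10. From 4 weeks of age, during 4 weeks before mating, and on through pregnancy and lactation, the control diet (5 dams) supplied 10% of energy from fat and the high-fat diet (4 dams) 60%. Sucrose gave 7% of the energy of both diets, and their energy density was 3.85 and 5.24 kcal per g. ICR is an outbred stock, so dams also differ in genotype, and which dams shared a cage before mating is not known here. Library totals ran from 837817 to 3897109 counts, and counting error and detection limits follow from these. Where a name had 0 counts, its share could be as high as 0.000358% in the smallest library and 7.7e-05% in the largest, the worth of 3 counts.

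In the usual route a primary transcript folds into a hairpin, Drosha releases it, and Dicer in the cytoplasm cuts the loop away, after which 1 arm is kept in an Argonaute protein. miR-320 and miR-484 take another route: RNA polymerase II starts transcription at the hairpin itself, so that the precursor carries the 5′ cap and goes to Dicer directly. For miR-320 the capped 5′ arm is poorly loaded into Argonaute, and the 3p arm is the well-known product. For miR-484 the counted product lies on the 5′ arm, and its arms were not compared here. miR-877 is a mirtron, a short intron that splicing and debranching turn into a hairpin ready for Dicer. miR-320 has been described as a regulator of glucose use and of lipid and stromal signalling, miR-484 as a repressor of the mitochondrial fission factor Fis1, and the host gene of miR-877, Abcf1, encodes a translation factor of the ATP-binding cassette group.

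The mature sequences show what distinguishes the members, and the capitals mark the seed (bases 2 to 8), by which a miRNA pairs with its targets. They are RefSeq sequences on build GRCm38.p6, where 3 of the 4 members were matched; mmu-miR-320-3p is given by name.
mmu-miR-484: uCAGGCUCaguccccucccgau
mmu-miR-877-5p: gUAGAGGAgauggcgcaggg
mmu-miR-877-3p: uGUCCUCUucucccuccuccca
The 3 seeds differ from each other, and 0 other mature names in the RefSeq table carried any of them. mmu-miR-484 and mmu-miR-877-3p have 22 bases and mmu-miR-877-5p has 20. Each mature sequence was found, base for base, in the annotated transcripts of 1 gene, its own hairpin, so spliced transcripts of other genes hold no identical stretch.

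The hairpins show where each product lies, with the mature sequences in capitals.
Mir484: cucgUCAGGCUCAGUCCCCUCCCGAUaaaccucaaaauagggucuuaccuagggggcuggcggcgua
Mir877: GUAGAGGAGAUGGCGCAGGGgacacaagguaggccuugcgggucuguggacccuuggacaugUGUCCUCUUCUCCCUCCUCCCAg
The counted product of Mir484 spans bases 5 to 26 of the 67 annotated bases, which is the 5′ arm. In Mir877 the 5p product begins at base 1 and the 3p product runs from base 63 to base 84 of 85. Mir877 begins with GU and ends with AG, the letters of a splice donor and acceptor, as do 2.99% of the 1005 hairpins in the RefSeq table.

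Mir877 lies on chromosome 17 at 35960730 to 35960814 (GRCm38, minus strand), and these are the exact first and last bases of intron 12 of Abcf1. The hairpin is therefore the whole intron of 85 bases between exon 12 and exon 13. Mir484 lies on chromosome 16 at 14159626 to 14159692 (plus strand), over an annotated exon of Marf1, which is transcribed from the opposite strand. The start of Nde1, on the same strand as Mir484, is 3583 bases away. Mir320 lies on chromosome 14 at 70443510 to 70443591 (plus strand), in no exon or intron of another gene, and 63 bases from the start of Polr3d, which runs the other way and encodes a subunit of RNA polymerase III.

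**Figure D1:**
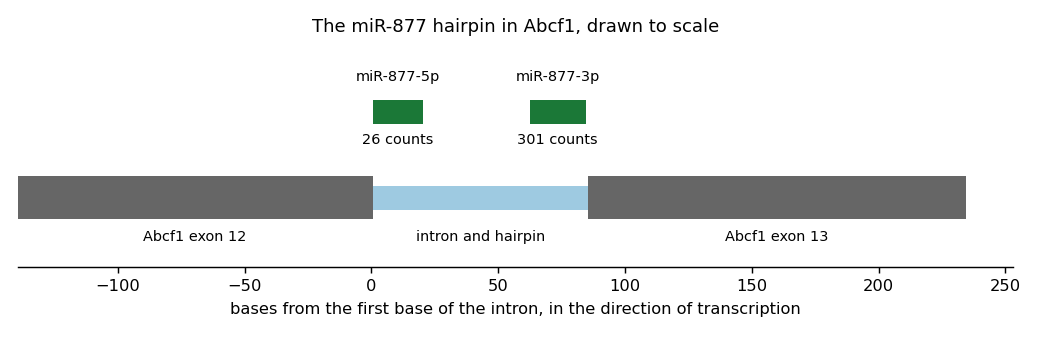
The miR-877 hairpin drawn to scale along the Abcf1 transcript, in bases counted from the first base of the intron; grey boxes are exons 12 and 13, the blue bar is the intron, and green boxes are the mature products with their counts summed over the 9 libraries. The hairpin fills the intron of 85 bases from end to end, and the 3p product at its acceptor end had 301 counts against 26 for the 5p product at its donor end.

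Levels are given as CPM, counts scaled to a common library size with trimmed mean of M values factors and expressed per 1e6 counts. A read covers a whole mature miRNA, so no length correction applies, but how readily each sequence was ligated and amplified was not measured. mmu-miR-484 was the most abundant member, at 1220 CPM on average over the 9 libraries, and stood at place 63 among the 312 miRNAs that passed the filter on low counts. mmu-miR-320-3p averaged 587 CPM and stood at place 76. mmu-miR-877-3p, at 14.7 CPM, stood at place 248, and mmu-miR-877-5p, at 1.60 CPM, did not pass the filter. The 4 members together made up 0.194% ± 0.0303 of a control library and 0.170% ± 0.0629 of a high-fat one (SD, n = 5 and 4).

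The order of the members was tested within libraries by the log2 ratio of counts (0.5 added to each), with an exact two-sided sign-flip permutation test over 9 libraries, adjusted over 3 ratios by the Benjamini-Hochberg method. The order itself was taken from these same counts, so the p-values are not separate evidence for it. Nor do they measure how even a ratio was. Over the 9 libraries the log2 ratio of mmu-miR-484 to mmu-miR-320-3p ran from -0.06 to 1.76. That of mmu-miR-320-3p to mmu-miR-877-3p ran from 4.01 to 6.86, and that of mmu-miR-877-3p to mmu-miR-877-5p from 1.58 to 7.35. mmu-miR-484 exceeded mmu-miR-320-3p 2.22-fold on average, in 8 of 9 libraries, with an exact permutation p of 0.00781 (adjusted 0.00781). The exception was control library 5, which held 948 counts of mmu-miR-484 and 989 of mmu-miR-320-3p. mmu-miR-320-3p exceeded mmu-miR-877-3p 39.5-fold and mmu-miR-877-3p exceeded mmu-miR-877-5p 9.12-fold, both in 9 of 9 libraries and both with an exact permutation p of 0.00391 (adjusted 0.00586), the smallest that 9 libraries can give.

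mmu-miR-320-3p, the capped-precursor product, had 876, 740, 1831, 648 and 989 counts in the controls, numbered 1 to 5, and 2127, 1314, 569 and 820 in the high-fat dams, numbered 1 to 4. As levels these were 504, 605, 663, 413 and 1175 CPM in control milk and 838, 347, 288 and 445 CPM in high-fat milk. The diets overlapped: high-fat libraries 2 and 3 were below all 5 controls, while high-fat library 1 was above 4 of them. Control library 5, the shallowest library, held the highest level of the 9, with a share of 0.118% and a 95% Wilson interval of 0.111% to 0.126%. The mean was 672 ± 297 CPM for controls and 479 ± 248 CPM for high-fat dams (SD, n = 5 and 4).

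The question put to each member was whether the maternal diet was accompanied by a different level in milk. For mmu-miR-320-3p limma-voom gave a log2 fold change of -0.50 ± 0.35 (SE, high-fat over control), a 95% interval of -1.28 to 0.28 and an adjusted p of 0.650 over the 312 tested names. By share of the library the means were 0.0673% ± 0.0300 and 0.0490% ± 0.0287, where the exact permutation test, two-sided, gave p = 0.421. The estimate leaned on single libraries, at -0.80 without high-fat library 1, with a limma-voom adjusted p of 0.312, and at -0.30 without control library 5 or without high-fat library 3.

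mmu-miR-484, the other product of a hairpin that starts its own transcript, had 2354, 1206, 3994, 2094 and 948 counts in the controls, numbered 1 to 5, and 3561, 4456, 1356 and 2708 in the high-fat dams, numbered 1 to 4. Its levels were 1355, 986, 1447, 1336 and 1126 CPM in control milk and 1403, 1176, 686 and 1469 CPM in high-fat milk. Its spread in control milk was narrow, with a highest level 1.47 times the lowest, where mmu-miR-320-3p spanned 2.84 times. High-fat library 3 was the lowest of the 9 libraries, while the other 3 high-fat libraries lay within or just above the range of the controls. The log2 fold change was -0.13 ± 0.23 with a 95% interval of -0.64 to 0.38 and a limma-voom adjusted p of 0.848. The shares were 0.125% ± 0.0199 and 0.119% ± 0.0382, with an exact permutation p of 0.770. Without high-fat library 3 the direction turned, to a log2 fold change of 0.11 with a limma-voom adjusted p of 0.817.

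mmu-miR-877-3p, the mirtron product from the acceptor end of the intron, had 40, 7, 61, 20 and 8 counts in the controls, numbered 1 to 5, and 46, 81, 13 and 25 in the high-fat dams, numbered 1 to 4. These were 23.0, 5.72, 22.1, 12.8 and 9.51 CPM in control milk and 18.1, 21.4, 6.58 and 13.6 CPM in high-fat milk. The high-fat libraries all lay inside the range of the controls. The log2 fold change was -0.04 ± 0.48 with a 95% interval of -1.10 to 1.01 and a limma-voom adjusted p of 0.957. On the linear scale that interval reaches from 0.467-fold to 2.02-fold. The shares were 0.00147% ± 0.000793 and 0.00150% ± 0.000665, with an exact permutation p of 0.944. The fitted difference is so near 0 that its sign turned when control library 1, control library 3 or high-fat library 3 was left out, to log2 fold changes of 0.10, 0.22 and 0.26.

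mmu-miR-877-5p, from the donor end of the same intron, had 3, 2, 4, 4 and 1 counts in the controls, numbered 1 to 5, and 4, 0, 2 and 6 in the high-fat dams, numbered 1 to 4. Only 3 of the 9 libraries held fewer than 2 or more than 4 counts, so single reads set its level. Its shares were 0.000171% ± 4.93e-05 for controls against 0.000146% ± 0.000133 for high-fat dams, with an exact permutation p of 0.722, and a difference was not detectable at this depth. In high-fat library 2, the deepest library, a count of 0 allows a share of up to 7.7e-05%, which is below the measured share in each control library. Those control shares rest on 1 to 4 counts. The lower Wilson limits of control libraries 1, 2, 3 and 5 ran from 2.11e-05% to 6.06e-05%, and that of control library 4 was 9.72e-05%. The upper Wilson limit for the count of 0 was 9.86e-05%, above each of these, so this library was not resolved from the controls.

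**Figure D2:**
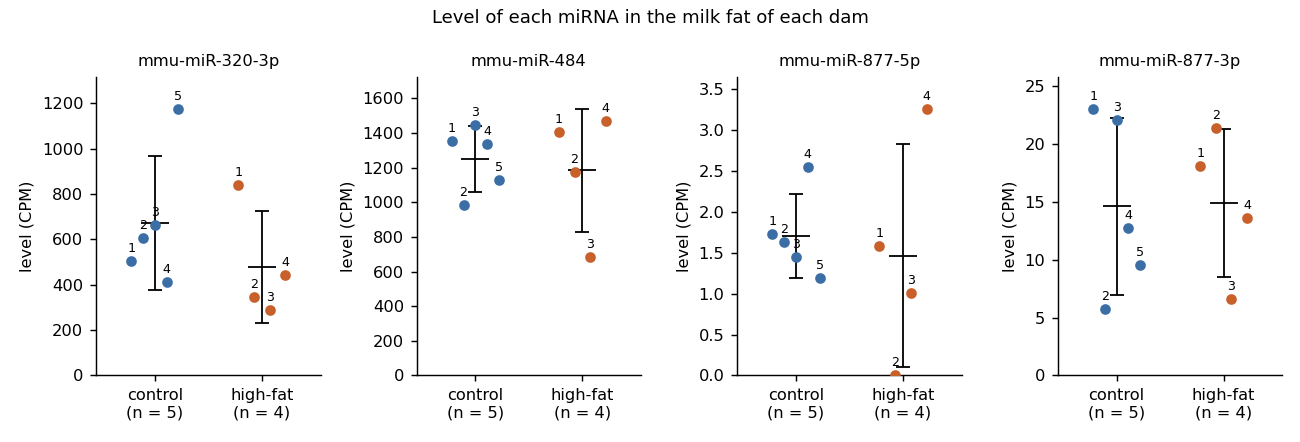
Level of each of the 4 miRNAs in CPM on the vertical axis, which starts at 0, for control (blue, n = 5) and high-fat dams (orange, n = 4); each numbered point is 1 library, and the black mark and bars are the mean and SD. In every panel the points of the diets overlap, and high-fat library 3 is the lowest or next to lowest point in the panels of miR-320-3p, miR-484 and miR-877-3p.

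Across all 312 tested miRNAs, 0% had a limma-voom adjusted p below 0.05, and 0 of the 3 tested members did. At an unadjusted p below 0.05 there were 32 of the 312 and 0 of the 3. In 15 of the 312 names, 4.81%, the libraries of the diets did not overlap, and 0 of the 3 tested members were among them. The fold changes of the 3 members were all below 0, with a median of -0.13, where 154 of the 312 names were below 0 and their median was 0.00. Each exact permutation test of 5 against 4 libraries has 126 arrangements, which sets the smallest p it can give.

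**Figure D3:**
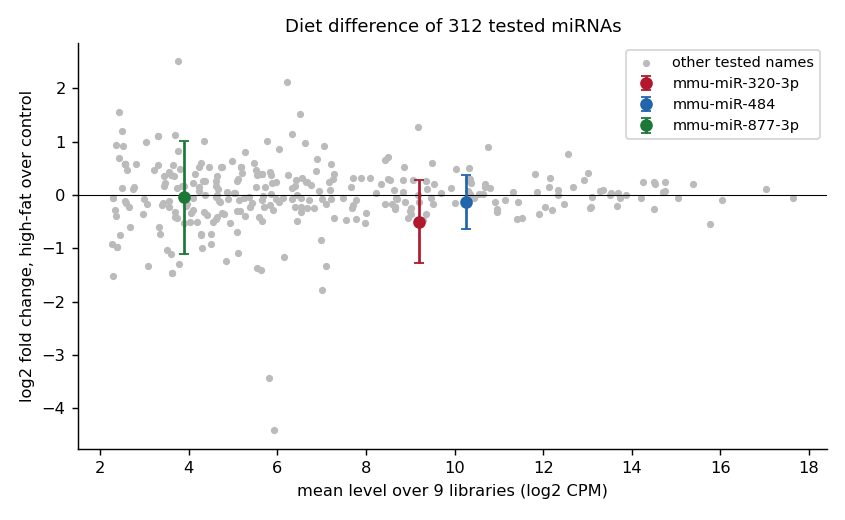
Log2 fold change of high-fat over control milk against mean level in log2 CPM for the 312 tested miRNAs; coloured points are the 3 tested members with 95% intervals of the fitted difference, grey points the other names. All 3 intervals include 0, and the widest belongs to miR-877-3p, the member with the fewest counts.

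The SD of log2 CPM between dams was compared with that of the other tested names. For mmu-miR-320-3p it was 0.568 among controls and 0.672 among high-fat dams, and for mmu-miR-877-3p it was 0.809 and 0.731, all above the medians of the 312 names, which were 0.393 and 0.418. mmu-miR-484 had 0.227 in control milk, below that median, and 0.504 in high-fat milk, which includes high-fat library 3. The SD of mmu-miR-877-3p, from 7 to 81 counts per library, includes counting error, and the medians were not matched for level.

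High-fat library 3 also stood apart in miRNAs of other cell types. It held 0.0650% of its counts in the 4 red cell markers, against 0.00227% to 0.0158% in controls and 0.00201% to 0.00971% in the other high-fat libraries, and 0.00910% in striated muscle markers, of which mmu-miR-206-3p was at 0 in every library. The 5 leukocyte markers made up 1.14% of high-fat library 1 and 0.287% of high-fat library 3, against 0.0356% to 0.0762% in controls, while high-fat libraries 2 and 4, at 0.00777% and 0.0251%, were below every control. All 5 leukocyte and all 4 red cell markers were detected. Markers of the milk-secreting epithelium, such as miR-148a-3p and the miR-200 group, were all 6 detected and held 26.3% to 32.1% of control and 28.2% to 31.2% of high-fat counts. Whether these other cells contributed to the levels of the members was not tested, and in bulk milk fat fewer cells of a type and less RNA per cell cannot be told apart. Without high-fat libraries 1 and 3 the log2 fold changes were -0.66 for mmu-miR-320-3p, 0.09 for mmu-miR-484 and 0.31 for mmu-miR-877-3p, with adjusted p of 0.365, 0.865 and 0.818 by limma-voom.

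The members did not share 1 pattern over the dams. The Pearson correlation of log2 CPM over the 9 libraries was 0.76 between mmu-miR-484 and mmu-miR-877-3p, 0.37 between mmu-miR-320-3p and mmu-miR-484, and 0.06 between mmu-miR-320-3p and mmu-miR-877-3p. These points share libraries and depth, and the values are descriptions. The ratio of mmu-miR-484 to mmu-miR-320-3p was lowest, at 0.959, in control library 5 and highest, at 3.39, in high-fat library 2. Its means were 2.14 ± 0.887 for controls and 2.69 ± 0.815 for high-fat dams.

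**Figure D4:**
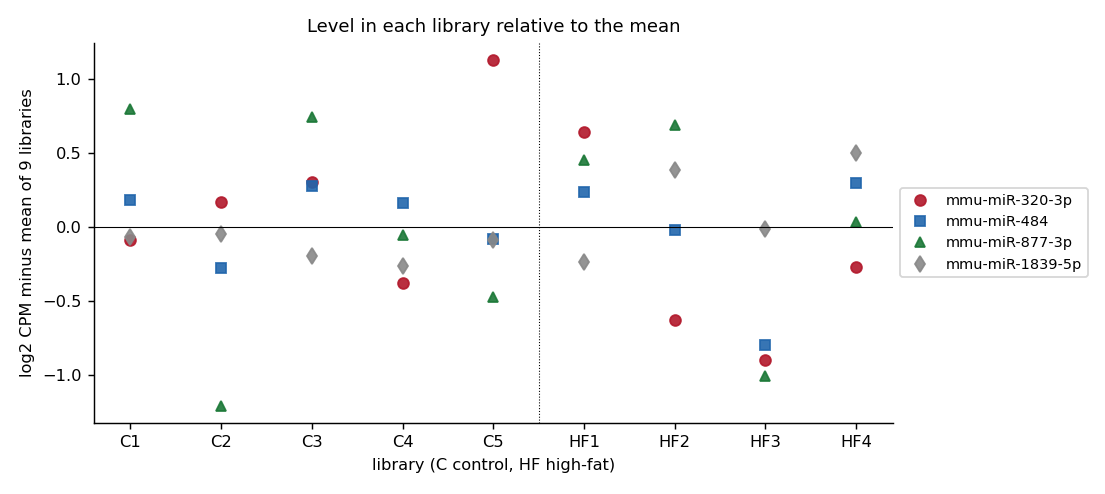
Log2 CPM of each miRNA in each library minus its mean over the 9 libraries, with controls left and high-fat libraries right of the dotted line; miR-1839-5p, a snoRNA-derived miRNA of like abundance, is shown in grey. miR-320-3p is highest in control library 5, and all 3 members lie below their means in high-fat library 3, where miR-1839-5p is near its own mean.

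The names most and least like each member are extremes picked from the 312 tested names over 9 libraries, so their r values are descriptions only. Those most like mmu-miR-320-3p were miR-2137 at r = 0.92, miR-3535 at 0.84 and miR-140-3p at 0.83, and the least like was miR-24-3p at -0.88. miR-3535 averaged only 4.92 CPM, where counting error weighs on r. For mmu-miR-484 the closest were miR-28a-3p at 0.91, miR-374b-5p at 0.87 and let-7b-3p at 0.83, and the farthest was miR-339-3p at -0.90. For mmu-miR-877-3p they were miR-501-3p at 0.91, let-7f-1-3p at 0.86 and let-7b-3p at 0.85, with miR-194-5p at -0.78 at the other end. In level, mmu-miR-320-3p stood between miR-222-3p at 625 CPM and miR-532-5p at 583 CPM. mmu-miR-484 stood between miR-140-3p at 1231 CPM and miR-223-3p at 1052 CPM, and mmu-miR-877-3p between miR-187-3p at 14.9 CPM and miR-330-5p at 14.3 CPM.

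The arms of Mir320 and Mir877 were compared next, since Dicer leaves a duplex of which 1 strand is kept. The other arm of Mir320, mmu-miR-320-5p, had 1, 2, 4, 0 and 6 counts in the controls, numbered 1 to 5, and 5, 5, 1 and 2 in the high-fat dams, numbered 1 to 4. Over all libraries the 3p arm made up 9914 of 9940 counts of the hairpin, 99.7% with a 95% Wilson interval of 99.6% to 99.8%, and between 99.4% and 100% in single libraries. In Mir877 the 3p arm made up 301 of 327 counts, 92.0% with an interval of 88.6% to 94.5%. In each of the 9 libraries the 3p arm held more counts than the 5p arm, with shares from 77.8% in control library 2, which had 9 counts from both arms, to 100% of 81 counts in high-fat library 2. These intervals cover counting error only.

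Among 123 hairpins with at least 20 counts in each arm, 59 had more 3p than 5p counts, and the median 3p share was 42.9%. Mir320 stood at place 10 and Mir877 at place 32 from the highest 3p share, and 33 of the 123 had a 3p share above 90%. The 5p to 3p ratio was then compared between diets. Neither hairpin reached the planned minimum of 50 counts in each arm, so the values come from the lower minimum of 20, at which limma called 0.813% of the pairs, 1 of 123, at an adjusted p of 0.05. The log2 ratio in high-fat minus control milk was 0.38 ± 0.55 (SE) for Mir320, with an adjusted p of 0.895 by limma, and -0.026 without control library 4. For Mir877 the difference was -1.06 ± 1.03 with an adjusted p of 0.738, and without high-fat library 2 it was 0.12, so that this library, with 0 counts of the 5p arm, decided its direction.

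**Figure D5:**
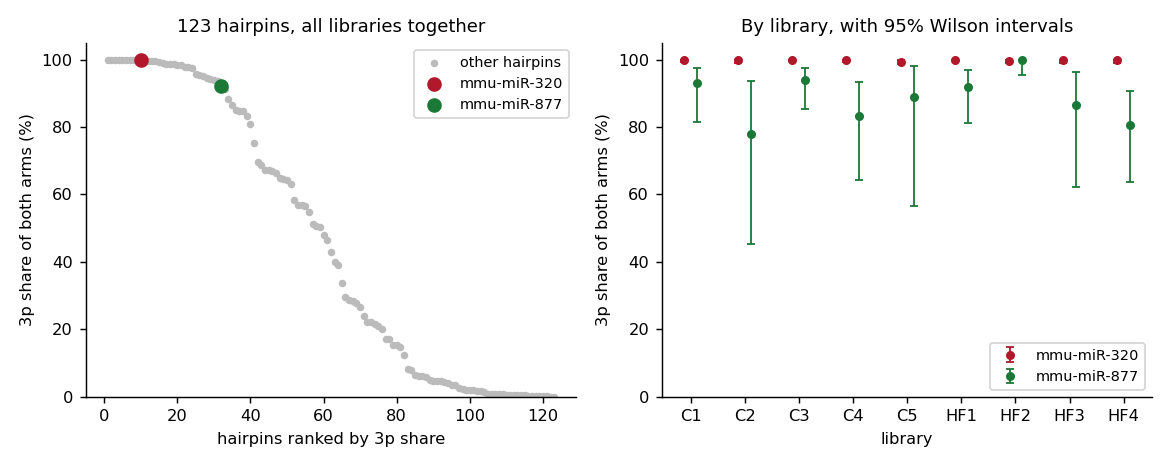
Left, the 3p share of both arms in percent for 123 hairpins ranked from highest to lowest, with Mir320 (red) at place 10 and Mir877 (green) at place 32; right, the same share in each library (C control, HF high-fat) with 95% Wilson intervals. The miR-320 shares all lie at 99.4% or above, and those of miR-877 between 77.8% and 100% with wide intervals where few reads were counted.

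miR-877 was set beside other mirtrons. In a comparison chosen after the table had been seen, 17 of the 1005 RefSeq hairpins coincided with an annotated intron of at most 150 bases, with both ends within 5 bases, and 16 of these matched exactly. Mir877, with 327 counts over all libraries, and Mir1981, with 322, had the most of the 17. Mir1981 fills intron 5 of Marc2 on chromosome 1 at 184822407 to 184822488. The order of these 2 hairpins was not settled: without high-fat library 2, the deepest, Mir877 had 246 counts and Mir1981 had 266. With both arms summed, Mir877 averaged 16.3 ± 6.61 CPM and Mir1981 18.2 ± 5.26 CPM (SD, n = 9), and Mir877 was the higher in 5 of the 9 libraries. Mir1982 in Oaz1, Mir7068 in Cherp and Mir7091 in Dnase1l1 had 10, 9 and 6 counts, and the other 12 had 0. In Mir1981 the 5p product carried 267 counts and the 3p product 55, the reverse of the order in Mir877.

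The list of other reported mirtrons (miR-702, miR-1224, miR-1981, miR-1982 and miR-3102) held 12 mature names, of which 6 were detected and 1 was tested. That name, miR-1981-5p, averaged 16.3 ± 4.68 CPM for controls against 13.9 ± 2.35 CPM for high-fat dams, which by limma-voom is a log2 difference of -0.21 ± 0.28 with a limma-voom adjusted p of 0.812. Both products of miR-1224 were at 0 in every library. Of 4 products of the snoRNA-derived miR-664 and miR-1839, which are also known to reach Dicer without Drosha, all 4 were tested and 0 rose or fell at an adjusted p of 0.05, with a median log2 fold change of 0.16. miR-1839-5p, at 1171 ± 73.6 CPM for controls and 1462 ± 340 CPM for high-fat dams, had the largest counts of these and a log2 fold change of 0.30 ± 0.17, with a limma-voom adjusted p of 0.621. miR-451a, which needs Drosha but not Dicer and marks red cells, ran from 10.7 to 103 CPM in control milk and from 11.8 to 441 CPM in high-fat milk, where the highest value was that of high-fat library 3.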

How the data were processed

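Small RNA from washed milk fat was extracted with a column kit and sequenced on a HiSeq2500 instrument from NEXTflex libraries, per the labels' protocols. The deposited values are raw read counts per precursor and mature name, written with comma separators in 833 cells, so the authors' columns are recorded under another unit and count models were not used. The submitters' processing notes name cutadapt 1.9.1, an adapter trimmer, and build GRCm38; which aligner, counter and miRBase release were used is not given here.

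Commas were stripped and the highest row per name and library was kept. A name was tested if 4 or more libraries reached 5.25 CPM (10 counts in a library of median size) and its counts summed to 15 or more, which left 312 names. limma 3.58.1 (R 4.3.3) fitted voom-weighted log2 CPM on diet alone, with Benjamini-Hochberg adjustment. Arm ratios used limma on log2 ratios with 0.5 counts added. The code was tested on simulated data. Pairs of libraries of a diet differed by a chi-square of at least 54.6 per degree of freedom, so none was the same library sequenced again. The chi-square cannot show whether libraries came from different dams. Dams are the replicates. Introns came from GENCODE M21. Named miRNAs are the members, their other arms, the 3 most and 1 least alike names, neighbours in level, and fixed lists. The members were picked by name, not by measured values, but they and the lists were chosen with earlier results of these data known.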

Additional observations from a re-analysis of the deposited data

Results flagged for a closer look

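The search covered 36 groups of values, each within a diet. These were shares of the members, their other arm and tested related miRNAs, summed marker shares, and the ratio of miR-484 to miR-320-3p. In 7 groups 1 library was far from the others, each time the highest. Chance alone would mark about 1 in 20 independent groups of normally distributed values. Whether the shares are so distributed was not tested. The groups are also not independent, since mmu-miR-451a is also among the red cell markers. None of the 4 members was among the flagged groups. The share of mmu-miR-320-5p was 0.000716% in control library 5, from 6 counts, against at most 0.000161% in the other controls. The share of mmu-miR-1839-3p was 0.00421% in high-fat library 2, with 0.00287% the next highest of that diet. In high-fat library 3, mmu-miR-451a held 0.0431%, the red cell markers 0.0650% and the striated muscle markers 0.00910%, where the next highest of that diet were 0.00729%, 0.00971% and 0.000472%. Stroma markers held 2.57% of high-fat library 4, and the next highest value of that diet was 1.25%. The liver marker held 0.00926% of control library 1, against at most 0.00382% in the other controls.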

How the results depend on the processing

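No member passed an adjusted p of 0.05 under any alternative run; over these, the adjusted p ran from 0.312 to 0.828 for mmu-miR-320-3p, 0.716 to 0.942 for mmu-miR-484 and 0.797 to 0.987 for mmu-miR-877-3p by limma. The fold change of mmu-miR-320-3p stayed below 0 in all 19, from -0.80 to -0.30 when each library was left out in turn. That of mmu-miR-484 ran from -0.29 to 0.11 and that of mmu-miR-877-3p from -0.33 to 0.26 on leaving out each library. mmu-miR-877-3p, with a difference near 0, was at 0.018 with no filter and 0.078 by limma-trend; it has no value under the stricter filter. Without high-fat libraries 1 and 3, chosen after seeing the data, mmu-miR-484 was at 0.089 and mmu-miR-877-3p at 0.31, and the share of mmu-miR-484 differed by 0.00303 percentage points. Leaving out each library, the share differences (percentage points) ran from -0.0324 to -0.00565 for mmu-miR-320-3p, -0.0174 to 0.0111 for mmu-miR-484, -8.07e-05 to 2.43e-05 for mmu-miR-877-5p and -0.000199 to 0.000314 for mmu-miR-877-3p. The arm ratio difference ran from -0.026 to 0.75 for Mir320 and -1.67 to 0.12 for Mir877.

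Over all names, 4 were called with no filter (147 at an unadjusted p below 0.05), 4 with the stricter filter, 2 by limma-trend, 2 with library quality weights, and 0 to 4 on leaving out each library, with 4 without control library 5; with no filter the median log2 fold change of all names moved to -0.21. Of arm pairs, 0 of 98 were called at the planned minimum of 50 counts and by each library left out, and 1 at 20. The replicate number as a block over the 4 shared numbers gave 3 calls, against 4 for the same libraries without it, and -0.29, -0.16 and -0.15 for mmu-miR-320-3p, mmu-miR-484 and mmu-miR-877-3p. In their deviations from the diet means, same-numbered libraries correlated at 0.06, -0.08, 0.20 and -0.16. For controls 1 and 3 the most alike high-fat library had the same number, and for controls 2 and 4 it did not. The labels do not say that the numbers pair dams, and these correlations cannot settle it. Depth limits mmu-miR-877-5p, at 0 to 6 counts, and both minor arms.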
